A study of Mus musculus with 5 samples.

Results

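Chaperones are proteins that bind other proteins while these are unfolded and help them reach, keep or leave their folded state. Followed here in natural helper cells of the lung were 49 mouse genes. They encode cytosolic and mitochondrial chaperones, their partners and the machinery that carries proteins into mitochondria. The 49 genes were chosen by function, from a list of names, with earlier results of these data known. Of these, 47 had a probe set assigned to that gene alone and were measured, among 19938 genes in all, while Hsp90ab1 and Hsf1 were not analysed here. They fall into 7 classes, namely the cytosolic chaperonin (8 genes), prefoldin (5), HSP90 with its cochaperones (7 measured of 8), HSP70 and HSP40 with Bag3 (10), a small heat shock protein (1 measured of 2 in a class that also names the heat shock factor), mitochondrial chaperones and proteases (7), and mitochondrial import (9).

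Natural helper cells are innate lymphocytes without antigen receptors, now counted among the group 2 innate lymphoid cells. The lungs came from naive C57Bl/6 mice that were 6 to 8 weeks old, and the cells were sorted by flow cytometry as lineage-negative, Sca-1-positive cells with little or no c-Kit that carried CD127 and CD25. For 2 samples the sorted cells were then kept for 3 days in medium with 60 ng/ml PMA, which turns on protein kinase C, and 500 ng/ml ionomycin, which lets calcium into cells, whereas the cells of 3 unstimulated samples were lysed right after the sort. No genotype other than the strain, and no transgene, is named for any sample. Unstimulated cells cultured for 3 days were not among the samples, so the stimulation, the culture and the time since the sort cannot be told apart. Whether the samples of a group stem from separate mice or cultures is not given in the labels. Each p-value therefore gauges the spread between the samples at hand, which may be technical.

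Each sample was read on 1 Affymetrix array, and the deposited values are on the log2 scale, on which a difference of 1 is a doubling. The array medians were 5.63 to 5.66, and arrays correlated at 0.989 between the stimulated samples, 0.980 to 0.989 among the unstimulated samples and 0.956 to 0.969 between the groups. The marker list of natural helper cells (10 of 13 genes measured) averaged 9.24 and 9.33 on the stimulated and 10.40 to 10.45 on the unstimulated arrays, with Kit, Il7r, Id2, Rora and Il17rb called lower after stimulation, and Ly6a, Il1rl1 and Areg not analysed here. Xist, which is transcribed from the inactive X chromosome of females, read 4.16 and 4.11 on the stimulated arrays, against 9.09, 10.20 and 9.66 on the unstimulated arrays. The labels name no sex, so the sex of the mice and the treatment cannot be told apart either.

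In the cytosol, the ring-shaped chaperonin, also called TRiC or CCT, encloses actin, tubulin and other proteins for folding, and prefoldin hands such clients to it. HSP70 proteins bind exposed stretches of unfolded chains with the help of HSP40 cochaperones, and HSP90 takes over late folding stages of kinases and steroid receptors. Most mitochondrial proteins are made in the cytosol, pass the outer and inner membranes through the TOM and TIM complexes as unfolded chains, and are folded inside by mitochondrial HSP70 and by the HSP60 and HSP10 ring. When unfolded proteins accumulate, the heat shock factor HSF1 binds heat shock elements, arrays of the unit GAA in alternating orientation, and switches on many of these genes.

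Promoters of 42 of the 47 genes were found in RefSeq (build GRCm38.p6), as windows from 250 bases before to 50 after each transcript start. On both strands they were searched for a heat shock element of 2 units (GAANNTTC or TTCNNGAA) and of 3 units (GAANNTTCNNGAA or TTCNNGAANNTTC), and every match of the longer motif also holds the shorter. The shorter was in 18 of 42 genes (42.9%), against 17.0% of all 27025 genes with a window. The longer was in 5 (11.9%), namely Hsph1, Dnajb6, Hspd1, Hspe1 and Timm9, against 0.662% of all. By class the shorter motif was in 6 of 9 HSP70 and HSP40 genes and in 0 of 4 prefoldin genes. Stretches of 250 bases before the start are shown for genes with higher means after stimulation (Hspe1, Timm9 and Hsph1) and with lower means (Dnajb6 and Hspa1a), with the heat shock element in capitals. For Hspe1 (plus strand), Timm9 (minus) and Dnajb6 (plus) the capitals mark the 3-unit match or overlapping matches, and for Hsph1 (minus) and Hspa1a (minus) the 2-unit match. They lie at chr1:55087898-55088147, chr12:71136676-71136925, chr5:29735648-29735897, chr5:149636337-149636586 and chr17:34972157-34972406, and each is written 5′ to 3′ on the strand of its gene.
Hspe1: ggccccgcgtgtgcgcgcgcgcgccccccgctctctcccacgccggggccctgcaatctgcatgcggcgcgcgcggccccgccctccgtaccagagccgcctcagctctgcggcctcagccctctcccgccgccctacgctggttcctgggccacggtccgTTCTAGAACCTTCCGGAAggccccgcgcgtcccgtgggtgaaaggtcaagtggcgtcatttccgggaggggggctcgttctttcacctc
Timm9: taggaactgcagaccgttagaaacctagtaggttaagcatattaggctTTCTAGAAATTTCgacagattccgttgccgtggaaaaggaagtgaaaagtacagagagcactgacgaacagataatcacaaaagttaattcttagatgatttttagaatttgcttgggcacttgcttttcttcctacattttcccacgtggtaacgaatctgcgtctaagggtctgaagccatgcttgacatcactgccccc
Dnajb6: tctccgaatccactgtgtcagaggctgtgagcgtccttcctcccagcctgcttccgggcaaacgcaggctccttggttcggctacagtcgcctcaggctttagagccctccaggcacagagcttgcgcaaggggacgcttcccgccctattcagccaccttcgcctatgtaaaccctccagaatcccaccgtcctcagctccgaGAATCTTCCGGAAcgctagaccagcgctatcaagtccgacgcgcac
Hsph1: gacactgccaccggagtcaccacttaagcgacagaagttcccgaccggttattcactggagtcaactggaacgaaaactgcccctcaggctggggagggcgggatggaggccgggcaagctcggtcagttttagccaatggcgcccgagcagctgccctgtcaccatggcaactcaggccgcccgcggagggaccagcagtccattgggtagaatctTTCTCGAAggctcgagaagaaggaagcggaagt
Hspa1a: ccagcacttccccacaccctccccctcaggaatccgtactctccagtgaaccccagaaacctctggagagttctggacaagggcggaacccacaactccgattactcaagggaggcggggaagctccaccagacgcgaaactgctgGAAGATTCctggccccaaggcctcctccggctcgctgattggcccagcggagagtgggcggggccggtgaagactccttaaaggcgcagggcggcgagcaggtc

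The differences of the chaperone genes did not all lie on 1 side of 0. Of the 47 genes, 34 had a higher and 13 a lower mean after PMA and ionomycin, beside 52.8% of all genes with a higher and 47.2% with a lower mean. Their median difference was 0.34, against 0.00 over all genes. Cct8, Cct6a and Hspd1 passed an adjusted p of 0.05 (limma, Benjamini-Hochberg adjustment over all genes) and rose, while none passed it in the lower direction, and 0.737% of all genes were called higher and 0.963% lower. Another 7 genes had higher and 4 had lower means at an adjusted p between 0.05 and 0.10, where in all 3.79% of all genes were higher and 3.49% lower at a p under 0.10. In 31 of the 47 genes (66.0%) both stimulated arrays read above all 3 unstimulated arrays, and in 7 (14.9%) both read below them. Separation of the groups was seen upward in 18.6% and downward in 14.0% of all genes. Among the 7712 genes at least as bright as the dimmest chaperone gene it was seen in 34.9% and 23.7%. The downward share of the chaperone genes was thus close to that of all genes and below that of the bright ones. Differences of at least 1 log2 unit were found upward in 4 genes and downward in 3, beside 2.23% and 2.73% of all genes. Of the 7 genes with groups separated downward, 6 belonged to HSP70, HSP40 and Bag3, and the other one was Pfdn5.

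**Figure D1:**
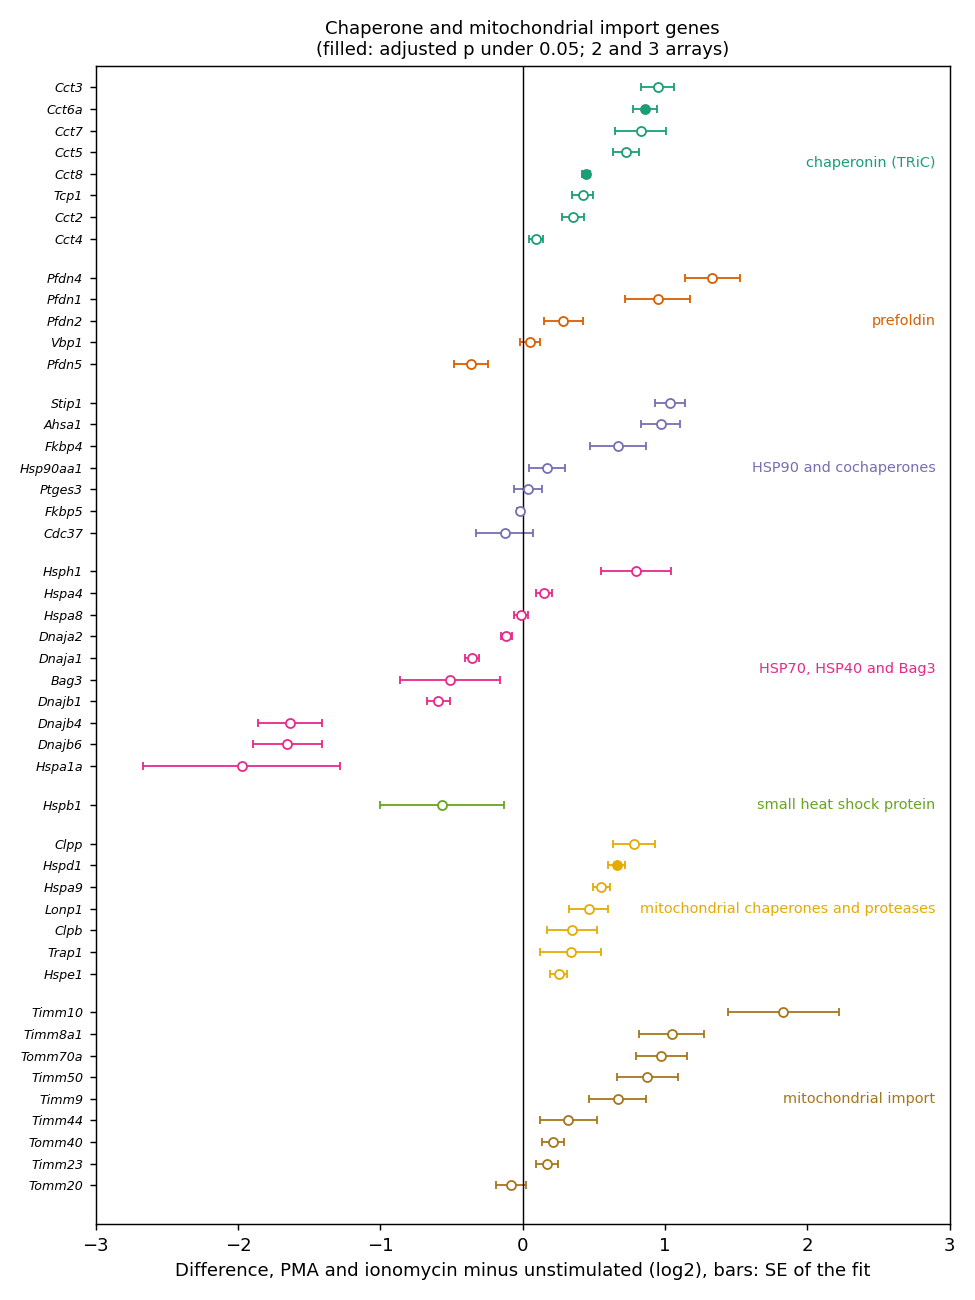
Difference between the means of the 2 PMA and ionomycin arrays and the 3 unstimulated arrays for each of the 47 genes, on the log2 scale, grouped by class. Points are the fitted differences and bars their standard errors, and filled points (Cct8, Cct6a and Hspd1) have an adjusted p under 0.05. Nearly all chaperonin, mitochondrial chaperone and import genes lie right of 0, and 8 of the 10 HSP70, HSP40 and Bag3 genes lie left of it, on the deposited scale (Cct4, Hsp90aa1, Hspa4, Ptges3, Timm23 and Vbp1 change sides when centred on the reference genes).

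The direction of the genes nearest to 0 depended on how the arrays were scaled. When each array was centred on the mean of 10 reference genes, the median of all genes moved by -0.18, the counts became 28 higher and 19 lower, and Cct4, Hsp90aa1, Hspa4, Ptges3, Timm23 and Vbp1 changed sign. Such centring shifts the difference of every gene by the same amount, so the chaperone median necessarily stayed at 0.34 relative to the median of all genes. The 3 calls also depended on which arrays were fitted. None of the 47 was called once stimulated array 1 or any 1 of the unstimulated arrays was left out, and Cct8 and Hspd1 alone were called without stimulated array 2. Their differences stayed at 0.42 to 0.47 (Cct8) and 0.59 to 0.73 (Hspd1), and that of Cct6a at 0.81 to 0.93. Without unstimulated array 1, 2 or 3, all genes gave 2, 0 and 45 called higher and 5, 0 and 43 lower. Without stimulated array 1 or 2 they gave 343 and 361 higher and 208 and 413 lower. An exact permutation test of 2 against 3 arrays cannot go below a p of 0.1.

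The chaperonin is built of subunits encoded by separate genes, all 8 of which were measured here, and all 8 had higher means after PMA and ionomycin with groups that did not overlap. Groups were separated upward in 18.6% of all genes, and in 34.9% of those at least as bright as the dimmest chaperone gene. Centred on the reference genes, 7 of the 8 were higher, with Cct4 at -0.09. Cct8, the theta subunit, had values of 10.48 and 10.43 on the PMA and ionomycin arrays, against 10.00, 9.99 and 10.04 on the unstimulated arrays. It rose by 0.45 ± 0.03 (SE; 1.36-fold, adjusted p = 0.0323, limma), a change of modest size between groups that were each very tight. Cct6a, the zeta subunit, read 9.31 and 9.28 on the PMA and ionomycin arrays, against 8.33, 8.41 and 8.57 on the unstimulated arrays. It rose by 0.86 ± 0.08 (1.82-fold, adjusted p = 0.0492, limma), and its lowest stimulated array stood well above the highest unstimulated one. In samples of many cells, fewer cells of a type and less RNA per cell cannot be told apart for these or any of the genes that follow.

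The other chaperonin subunits lay on the same side without passing the threshold. Cct3, the gamma subunit, had the largest difference of the 8, with 8.84 and 8.82 on the PMA and ionomycin arrays, against 7.69, 7.93 and 8.02 on the unstimulated arrays (0.95 ± 0.12, adjusted p = 0.0622, limma). Cct5, the epsilon subunit, read 10.18 and 10.26 on the PMA and ionomycin arrays, against 9.35, 9.60 and 9.53 on the unstimulated arrays (0.73 ± 0.09, adjusted p = 0.0646). Cct7, the eta subunit, read 8.95 and 8.71 on the PMA and ionomycin arrays, against 7.73, 8.18 and 8.10 on the unstimulated arrays (0.83 ± 0.18, adjusted p = 0.123). In all 3 genes unstimulated array 1 was the lowest of the 5, as it was of the unstimulated arrays in 5 of the 8 chaperonin genes. Over all genes it was the lowest unstimulated array in 9775 of 19938. Tcp1, the alpha subunit, differed by 0.42 ± 0.07 and Cct2, the beta subunit, by 0.35 ± 0.08 (adjusted p = 0.0949 and 0.125). Cct4, the delta subunit, read 9.64 and 9.51 on the PMA and ionomycin arrays, against 9.49, 9.49 and 9.46 on the unstimulated arrays, so its groups were separated by less than the gap between the stimulated arrays (0.09 ± 0.05, adjusted p = 0.431). Over the class the median difference was 0.59, with a range of 0.09 to 0.95, and it was 0.55 to 0.61 when single arrays were left out.

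**Figure D2:**
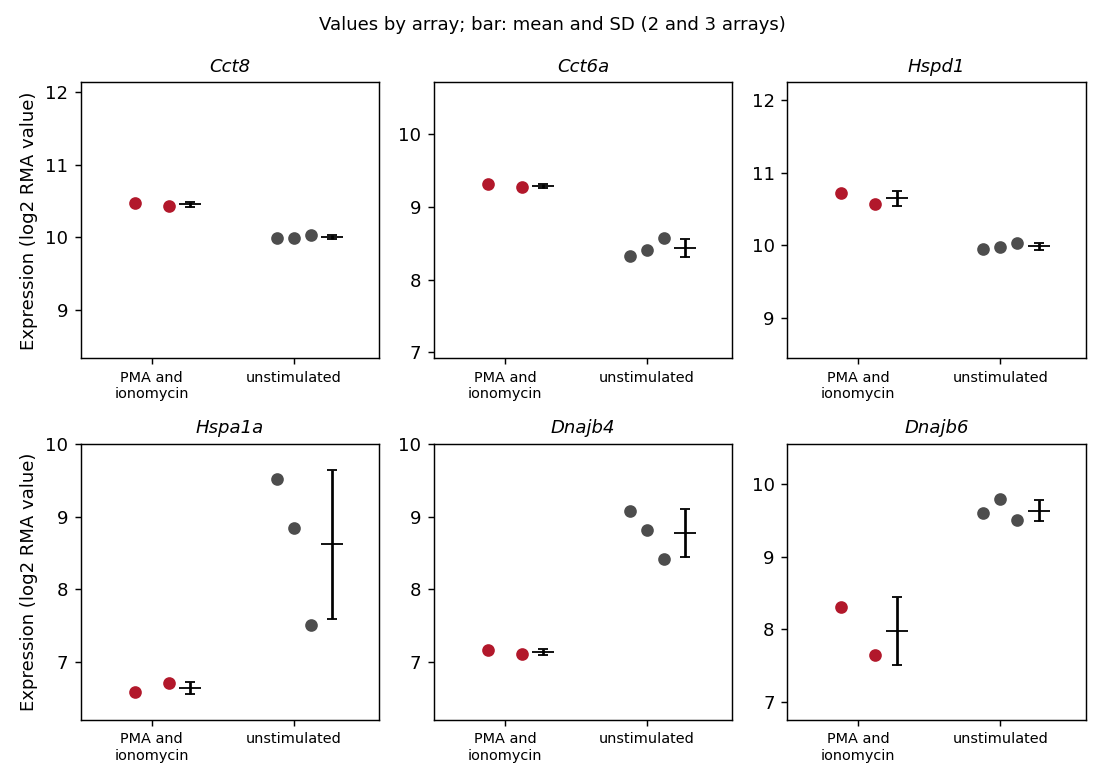
Log2 expression values on each array for Cct8, Cct6a and Hspd1, the 3 genes called higher, and for Hspa1a, Dnajb4 and Dnajb6, the 3 with the lowest differences. Red points are the 2 PMA and ionomycin arrays, grey points the 3 unstimulated arrays, and bars show mean and SD; each panel has its own range of equal length. The groups are apart in all 6 panels, and the unstimulated values of Hspa1a spread from 7.51 to 9.52.

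Prefoldin, whose subunits catch new actin and tubulin chains, was mixed. Pfdn4 read 7.70 and 7.19 on the PMA and ionomycin arrays, against 5.96, 6.22 and 6.16 on the unstimulated arrays, which is 2.52-fold higher after stimulation (1.33 ± 0.19, adjusted p = 0.0739, limma). Pfdn1 read 8.18 and 8.04 on the PMA and ionomycin arrays, against 6.81, 7.20 and 7.47 on the unstimulated arrays (0.95 ± 0.23, adjusted p = 0.145). Both genes had separated groups, though the stimulated arrays of Pfdn4 and the unstimulated arrays of Pfdn1 were themselves far apart. Pfdn5, also known as a binding partner of MYC, went the other way with 10.36 and 10.11 on the PMA and ionomycin arrays, against 10.60, 10.72 and 10.48 on the unstimulated arrays (-0.36 ± 0.12, adjusted p = 0.230). Its groups did not overlap either, so members of the same complex lay on opposite sides. Pfdn2 (0.28 ± 0.14) also had separated groups, but it was 0.11 without stimulated array 1 and 0.46 without stimulated array 2. Vbp1, a further prefoldin subunit, differed by 0.05 ± 0.07 with overlapping groups and was at -0.13 when centred on the reference genes. None of the 5 was called, and the class median of 0.28 was 0.11 without stimulated array 1 and 0.46 without stimulated array 2.

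Among HSP90 and its partners, the genes with the larger differences were cochaperones. Of the cytosolic HSP90 genes only Hsp90aa1 was measured, since Hsp90ab1, the constitutive one, was not analysed here. Stip1, known as HOP, links HSP70 to HSP90 and passes clients between them. It read 9.58 and 9.80 on the PMA and ionomycin arrays, against 8.53, 8.72 and 8.73 on the unstimulated arrays, or 2.05-fold higher after stimulation (1.03 ± 0.11, adjusted p = 0.0514, limma). Ahsa1, which stimulates the ATPase of HSP90, read 10.20 and 10.12 on the PMA and ionomycin arrays, against 8.96, 9.31 and 9.30 on the unstimulated arrays (0.97 ± 0.14, adjusted p = 0.0719). Fkbp4, an immunophilin that joins HSP90 in steroid receptor complexes, read 8.68 and 8.68 on the PMA and ionomycin arrays, against 7.69, 8.09 and 8.24 on the unstimulated arrays (0.67 ± 0.20, adjusted p = 0.194). These were the 3 genes of the class whose groups did not overlap, and none of them was called. Hsp90aa1, the inducible cytosolic HSP90, read 10.93 and 11.05 on the PMA and ionomycin arrays, against 11.03, 10.74 and 10.69 on the unstimulated arrays. Its unstimulated array 1 lay near the stimulated values, and the difference of 0.17 ± 0.13 (adjusted p = 0.491) became -0.01 when centred on the reference genes. Its 3 probe sets gave differences of 0.16 to 0.27.

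The remaining cochaperones of HSP90 had differences close to 0. Ptges3, or p23, which stabilises the closed form of HSP90, differed by 0.04 ± 0.10, and its 3 probe sets did not agree in sign (-0.05 to 0.12). Cdc37, which brings kinases to HSP90, read 7.84 and 7.82 on the PMA and ionomycin arrays, against 7.70, 8.28 and 7.89 on the unstimulated arrays, with both stimulated arrays inside the unstimulated range (-0.13 ± 0.20, adjusted p = 0.720). Fkbp5, an immunophilin induced by glucocorticoids, had the same value of 6.86 on 4 of the 5 arrays (-0.02 ± 0.02), so its probe set did not tell these samples apart. The class median was 0.17 (0.11 without unstimulated array 3 and 0.27 without array 1), or -0.01 when centred on the reference genes with 3 of 7 means higher.

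Most HSP70 and HSP40 genes lay on the lower side. Of 10 genes, 8 had lower means after PMA and ionomycin, 6 of them with separated groups, and none was called, although 4 (Dnaja1, Dnajb1, Dnajb4 and Dnajb6) were at an adjusted p under 0.10. Groups were separated downward in 14.0% of all genes, and in 23.7% of those at least as bright as the dimmest chaperone gene. The class median was -0.43 (9 of 10 means were lower when centred on the reference genes), and it was -0.51 without unstimulated array 3 and -0.28 without unstimulated array 1. Hspa1a encodes an HSP70 that is scarce in resting cells and strongly induced by heat and other stress. It read 6.59 and 6.71 on the PMA and ionomycin arrays, against 9.52, 8.84 and 7.51 on the unstimulated arrays. The stimulated arrays were close together and lowest, while the unstimulated arrays were spread widely, with array 1 the highest and array 3 the nearest to the stimulated ones. The difference of -1.98 ± 0.69 (3.93-fold lower) was not called (adjusted p = 0.256, limma), and against unstimulated array 3 alone it was -0.86. Hspa1a has a near-identical neighbour, Hspa1b, whose RNA the probes may also bind, so the gene behind the signal is uncertain.

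HSP40 proteins deliver clients to HSP70 and start its ATPase. Dnajb4 read 7.17 and 7.11 on the PMA and ionomycin arrays, against 9.09, 8.82 and 8.42 on the unstimulated arrays, or 3.11-fold lower after stimulation (-1.63 ± 0.23, adjusted p = 0.0710, limma). Dnajb6, which keeps aggregation-prone proteins soluble, read 8.30 and 7.65 on the PMA and ionomycin arrays, against 9.59, 9.79 and 9.51 on the unstimulated arrays (3.15-fold lower; -1.65 ± 0.24, adjusted p = 0.0744). Dnajb1, the classic heat-inducible HSP40, read 7.79 and 7.81 on the PMA and ionomycin arrays, against 8.52, 8.39 and 8.28 on the unstimulated arrays (-0.59 ± 0.08, adjusted p = 0.0707). In each of these 3 genes the lowest unstimulated array stood above both stimulated arrays, and the stimulated arrays of Dnajb6 were themselves far apart. Dnaja1, a partner of the constitutive HSP70, read 11.25 and 11.29 on the PMA and ionomycin arrays, against 11.71, 11.58 and 11.60 on the unstimulated arrays (-0.36 ± 0.05, adjusted p = 0.0705), and its second probe set gave -0.47. Dnaja2, its close relative, differed by only -0.11 ± 0.04, again with separated groups.

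The HSP70 proteins that are always present had small differences. Hspa8, the constitutive cytosolic HSP70, read 11.64 and 11.75 on the PMA and ionomycin arrays, against 11.71, 11.66 and 11.75 on the unstimulated arrays, with overlapping groups and a difference of -0.01 ± 0.05 that was 0.01 with the arrays centred on their medians. Hspa4, an exchange factor of the HSP110 family, read 10.06 and 10.16 on the PMA and ionomycin arrays, against 9.99, 10.01 and 9.89 on the unstimulated arrays (0.15 ± 0.06), and was at -0.03 when centred on the reference genes. Hsph1, the heat-inducible HSP110, was, with Hspa4, 1 of the 2 genes of the class with a higher mean, at 9.09 and 9.47 on the PMA and ionomycin arrays, against 8.83, 8.41 and 8.22 on the unstimulated arrays. Both stimulated arrays were above all unstimulated ones, but the arrays within each group were far apart (0.79 ± 0.25, adjusted p = 0.212, limma). Bag3, which couples HSP70 to autophagy and is induced by stress, read 6.30 and 6.78 on the PMA and ionomycin arrays, against 7.59, 6.78 and 6.78 on the unstimulated arrays, with the same value on 3 arrays (-0.51 ± 0.35, adjusted p = 0.475). Hspb1, the small heat shock protein HSP25 of mouse, read 5.74 and 6.00 on the PMA and ionomycin arrays, against 7.16, 6.18 and 5.98 on the unstimulated arrays (-0.57 ± 0.44, adjusted p = 0.494). In both of these genes unstimulated array 1 was the highest by a wide margin and the other arrays lay closer together, and against unstimulated array 3 alone Hspb1 differed by -0.11.

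Other measures were set beside these genes on each array. Unstimulated array 1 was the highest of the unstimulated arrays in 7 of the 10 HSP70 and HSP40 genes, and array 3 the lowest in 7. Over all 19938 genes, array 1 was the highest in 9402 and array 3 the lowest in 4596 (ties counted for the lower-numbered array). Immediate early genes, which are known to be switched on when tissue is taken apart, averaged 7.25 and 7.36 over 18 genes on the stimulated arrays. On the unstimulated arrays they averaged 8.83 to 9.20, and these means stood in the same order as for Hspa1a. Not every gene had that order, since array 3 was the lowest unstimulated array in 11 of the 18 and array 2 in 7. Fos, for example, read 9.05, 8.75 and 8.88 on unstimulated arrays 1 to 3, and Fosb and Jun were also lowest on array 2. Of the 18, 17 had lower means after stimulation and 8 fell. Differences among these 8 were -4.80 for Fosb, -3.36 for Dusp1, -2.95 for Fos and -2.89 for Jun (adjusted p = 0.0105, 0.0229, 0.0229 and 0.0358, limma).

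Markers of other lung cells also differed among the unstimulated arrays. All 4 endothelial markers listed were measured and averaged 5.85 and 6.12 on the stimulated arrays, against 8.02, 7.71 and 6.52 on the unstimulated arrays. The 5 of 5 epithelial markers averaged 6.19 and 6.21 on the stimulated arrays, against 7.67, 7.03 and 6.57 on the unstimulated arrays. The 4 of 4 neutrophil markers averaged 4.59 and 4.69 on the stimulated arrays, against 6.80, 6.10 and 5.34 on the unstimulated arrays. In all 3 lists the means stood in the order of Hspa1a on the unstimulated arrays. Examples chosen after their values were seen are Scgb1a1, Cdh5 and S100a9. Scgb1a1 read 6.95 and 7.97 on the stimulated arrays, against 11.17, 10.58 and 8.67 on the unstimulated arrays. Cdh5 read 5.59 and 6.19, against 9.71, 9.06 and 7.12, and S100a9 read 4.97 and 5.09, against 9.49, 8.15 and 6.91. Other genes did not have that order. Epcam read 5.61, 5.61 and 5.99 on the unstimulated arrays, Cldn5 7.05, 7.11 and 6.25, and Sftpb 5.75 on each. Ly6g and Krt8 had higher means on the stimulated arrays. Of the lists named next, NK cells and macrophages had that order of means, and T cells, B cells, dendritic cells, mast cells and fibroblasts had another. The lists of T cells, B cells, NK cells, macrophages, dendritic cells, mast cells and fibroblasts had means of 3.79 to 7.19 on the stimulated and 4.65 to 7.88 on the unstimulated arrays, and no gene of any list of other cell types was called. Among the mast cell and basophil genes, 2 of 4 had groups separated downward. Of these, Cpa3 read 4.11 and 4.08 on the stimulated arrays, against 6.47, 7.48 and 6.74 on the unstimulated arrays. The sort took lineage-negative cells with CD127 and CD25, and how many other cells remained was not measured. The part of the immediate early genes and of these other cells in the HSP70 and HSP40 results was not tested.

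**Figure D3:**
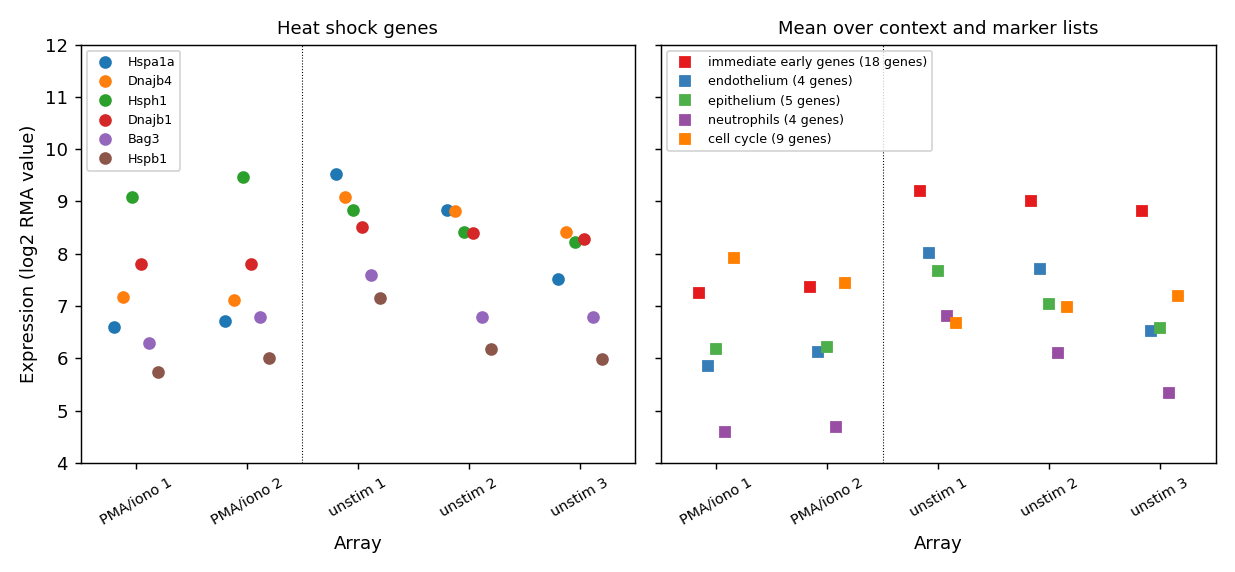
Log2 expression on each of the 5 arrays for 6 heat shock genes (left) and the mean over lists of immediate early, endothelial, epithelial, neutrophil and cell cycle genes (right). Each point is 1 array, the 2 PMA and ionomycin arrays stand left of the dotted line and the 3 unstimulated arrays right of it. Hspa1a reads 9.52, 8.84 and 7.51 on unstimulated arrays 1 to 3, and the endothelial list 8.02, 7.71 and 6.52.

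Inside mitochondria, all 7 chaperone and protease genes had higher means after PMA and ionomycin and separated groups, and the means were also higher on the scale centred on the reference genes. Upward separation was seen in 18.6% of all genes, and in 34.9% of those at least as bright as the dimmest chaperone gene. Hspd1, the HSP60 that forms the folding chamber, read 10.72 and 10.57 on the PMA and ionomycin arrays, against 9.95, 9.98 and 10.04 on the unstimulated arrays. It rose by 0.66 ± 0.06 (1.58-fold, adjusted p = 0.0442, limma), and its second probe set gave 0.69. Hspe1, the HSP10 lid of that chamber, read 11.61 and 11.59 on the PMA and ionomycin arrays, against 11.30, 11.30 and 11.45 on the unstimulated arrays. Its groups were apart, but the difference was smaller (0.25 ± 0.06, adjusted p = 0.144) and its second probe set gave 0.37. Hspa9, the mitochondrial HSP70 that pulls chains in and folds them, read 10.42 and 10.33 on the PMA and ionomycin arrays, against 9.91, 9.77 and 9.79 on the unstimulated arrays (1.47-fold higher; 0.55 ± 0.06, adjusted p = 0.0549). It missed the threshold narrowly, with arrays within each group close together.

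The mitochondrial proteases and the remaining chaperones had wider spreads. Clpp, the proteolytic subunit of a matrix protease, read 7.20 and 7.09 on the PMA and ionomycin arrays, against 6.25, 6.24 and 6.60 on the unstimulated arrays (0.78 ± 0.15, adjusted p = 0.101, limma). Lonp1, which degrades oxidised matrix proteins, read 6.45 and 6.71 on the PMA and ionomycin arrays, against 6.09, 6.29 and 5.98 on the unstimulated arrays (0.46 ± 0.14, adjusted p = 0.199). Clpb, a disaggregase, read 6.61 and 6.24 on the PMA and ionomycin arrays, against 6.21, 6.16 and 5.86 on the unstimulated arrays (0.35 ± 0.18, adjusted p = 0.423). All 3 had separated groups, by a margin of only 0.03 for Clpb, whose difference was 0.17 without stimulated array 1 and 0.53 without stimulated array 2. Trap1, the mitochondrial HSP90, differed by 0.34 ± 0.21, and its unstimulated arrays 2 and 3 held the same value of 7.74, just under the lower stimulated value of 7.82. Without unstimulated array 1 its difference was 0.16. The class median was 0.46, and 0.43 to 0.53 with single arrays left out.

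Mitochondrial import had a class median of 0.67, with 8 of 9 means higher and 8 with separated groups, yet no gene of the class was called or reached an adjusted p under 0.10. Such separation was seen in 18.6% of all genes, and in 34.9% of those at least as bright as the dimmest chaperone gene. Unstimulated array 1 was the lowest unstimulated array in 7 of the 9, beside 9775 of 19938 over all genes. The class median was 0.48 to 0.85 with single arrays left out. On the deposited scale it was above the chaperonin median, but without stimulated array 1 it was 0.48 against 0.57 for the chaperonin. Timm10 belongs to the small TIM chaperones, which escort membrane proteins across the space between the membranes. It read 8.67 and 8.40 on the PMA and ionomycin arrays, against 6.07, 6.92 and 7.12 on the unstimulated arrays, the highest difference of the 47 (3.56-fold higher; 1.83 ± 0.39, adjusted p = 0.120, limma). Timm9, its partner in the same ring, read 7.20 and 6.83 on the PMA and ionomycin arrays, against 6.10, 6.39 and 6.56 on the unstimulated arrays (0.67 ± 0.20, adjusted p = 0.201). Timm8a1, another small TIM, read 9.49 and 9.23 on the PMA and ionomycin arrays, against 7.98, 8.39 and 8.59 on the unstimulated arrays (1.05 ± 0.23, adjusted p = 0.125), and its second probe set gave 1.08. In each of these 3 genes the unstimulated arrays were spread widely, with array 1 at the bottom.

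Among the receptors and channels, Tomm70a, the outer membrane receptor that docks HSP70 and HSP90 with their cargo, read 9.18 and 8.80 on the PMA and ionomycin arrays, against 7.86, 7.96 and 8.22 on the unstimulated arrays (0.97 ± 0.18, adjusted p = 0.1, limma). Tomm20, the receptor for presequences, read 8.88 and 8.67 on the PMA and ionomycin arrays, against 8.91, 8.93 and 8.72 on the unstimulated arrays, with overlapping groups (-0.08 ± 0.10). It was the only gene of the class without a higher mean on the deposited scale. Timm50, the inner membrane receptor, read 7.58 and 7.30 on the PMA and ionomycin arrays, against 6.26, 6.82 and 6.63 on the unstimulated arrays (0.87 ± 0.22, adjusted p = 0.150). Tomm40, the outer membrane channel, differed by 0.21 ± 0.08, and Timm44, which tethers mitochondrial HSP70 to the inner channel, by 0.32 ± 0.20, each with a value repeated on unstimulated arrays 2 and 3. Timm23, the inner channel itself, differed by 0.17 ± 0.08 and was at -0.01 when centred on the reference genes, after which 7 of the 9 import genes were higher. The 4 probe sets of Timm23 gave 0.17 to 0.21, but 2 of them held the same values on every array and so are not separate readings.

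**Figure D4:**
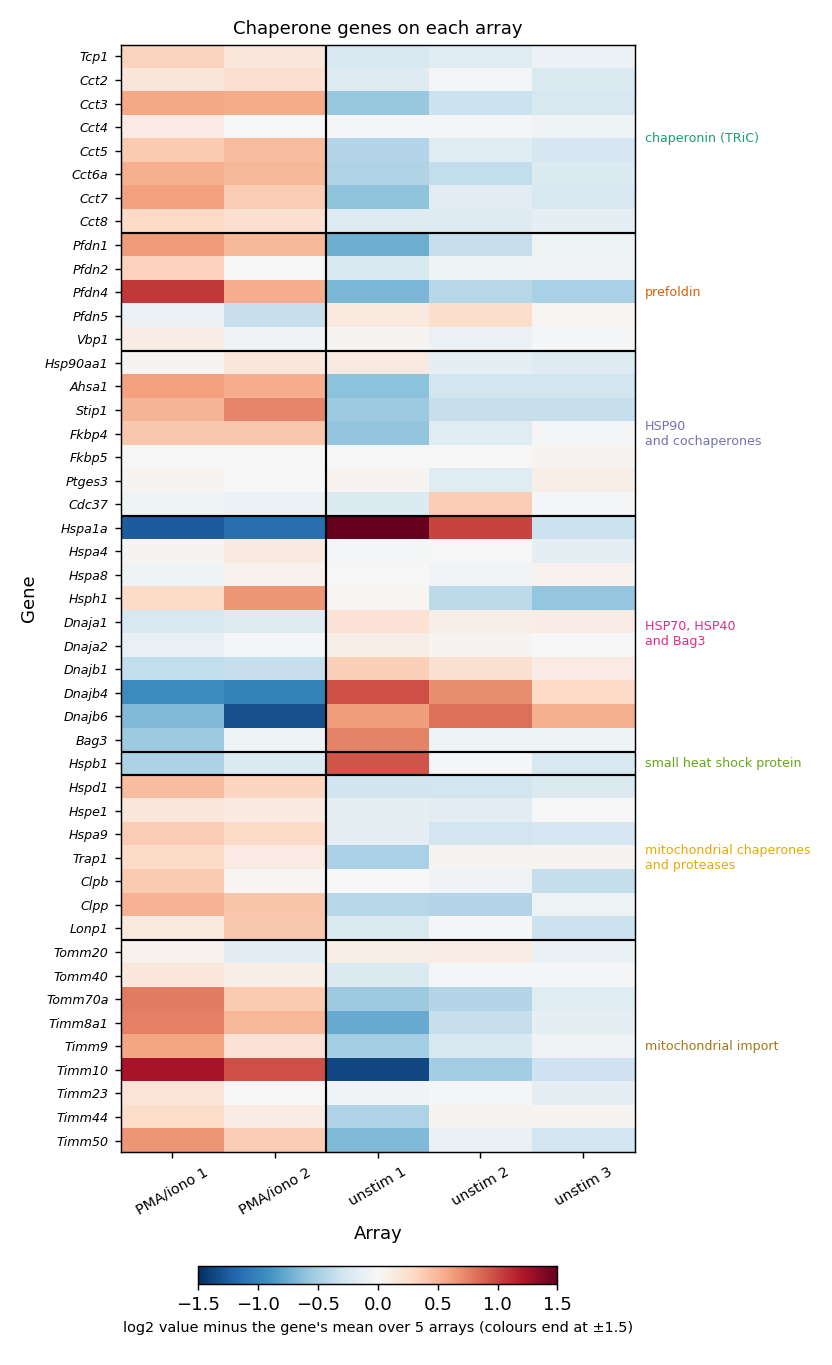
Log2 value of each of the 47 genes on each array minus that gene's mean over the 5 arrays, as colour from blue (-1.5 and below) to red (1.5 and above). Rows are genes by class, and the vertical line parts the 2 PMA and ionomycin arrays from the 3 unstimulated arrays. Most chaperonin, mitochondrial and import rows are red on the left, Hspa1a, Dnajb4 and Dnajb6 are blue there, and unstimulated array 1 holds the lowest value of 21 genes.

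The arrays differed among themselves in a way that cut across the classes. Stimulated array 1 was the higher of the stimulated arrays in 32 genes and array 2 in 16, with the tie of Fkbp5 in both counts, and stimulated array 1 held the highest of all 5 values in 25 genes. Unstimulated array 1 was the lowest of the unstimulated arrays in 22 genes and the highest in 13. Over all 19938 genes it was the lowest in 9775 and the highest in 9402, with ties counted for the lower-numbered array. The count of 22 was thus close to the share over all genes. Cell cycle genes, listed as a gauge of dividing cells, had means of 7.91 and 7.43 over 9 genes on the stimulated arrays, against 6.67, 6.99 and 7.19 on the unstimulated arrays, and none of them was called. The reference genes averaged 10.09 and 10.06 over 10 genes on the stimulated arrays, against 9.77, 9.94 and 9.96 on the unstimulated arrays, and 9 of the 10 had their lowest unstimulated value on array 1. Both lists, and the means of the chaperonin, prefoldin, HSP90, mitochondrial chaperone and import classes, were thus lowest on unstimulated array 1. The part of either list in these results was not tested.

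The promoter stretch printed for Hspe1 also serves Hspd1. The genes run away from each other on chromosome 1, and a start of Hspd1 lies 216 bases before that of Hspe1, so the capitals lie between those starts. RefSeq gives Hspd1 another start, at 55088243 and past the Hspe1 start at 55088148. The window of that start holds no heat shock element, and a transcript from it would overlap Hspe1 and run through the element. The difference was 0.66 ± 0.06 for Hspd1 and 0.25 ± 0.06 for Hspe1. In Hsph1 the 3-unit match, TTCTGGAAAGTTC, begins 36 bases past the start used and so is not in the stretch. The genes with the 3-unit motif did not lie on 1 side, since Dnajb6 had a lower mean (-1.65 ± 0.24) and Hsph1 (0.79 ± 0.25), Timm9 (0.67 ± 0.20), Hspd1 and Hspe1 had higher ones. Of the 18 genes with the 2-unit motif, 10 had higher and 8 lower means (median difference 0.30), and of the 24 without it, 20 had higher and 4 lower means (0.34). A match describes letters in a window and shows no binding, and a window without one says nothing of the factor.

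Other short motifs were counted in the same windows. The E-box CACGTG, a motif bound by MYC among other factors, was in 8 of 42 genes (19.0%), against 8.09% of all genes, and in 4 of the 9 import genes. Of the 8, 6 had higher and 2 lower means, and of the 34 without it, 24 had higher and 10 lower means. The CCAAT box (CCAAT or ATTGG) was in 17 of 42 genes (40.5%), close to the 41.1% of all genes.

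Further genes of the same pathways were listed by function, also with earlier results of these data known. Their counts stand beside 18.6% of all genes with groups separated upward and 14.0% downward (34.9% and 23.7% among bright genes). Of 42 measured cytosolic chaperone genes outside the 47, 32 had higher and 10 lower means with a median of 0.13, 19 had groups separated upward (45.2%) and 3 downward (7.14%), and 1 was called in each direction. St13, known as HIP, which holds HSP70 on its client, read 9.73 and 9.78 on the stimulated arrays, against 9.24, 9.24 and 9.30 on the unstimulated arrays, and rose by 0.49 ± 0.03 (adjusted p = 0.0307, limma). Hspa2, an HSP70 best known from the testis, read 5.99 and 6.07 on the stimulated arrays, against 8.24, 8.21 and 7.77 on the unstimulated arrays, and fell by 2.04 on the log2 scale (SE 0.18, adjusted p = 0.0442). Like Hspa1a, Hspa2 was low on both stimulated arrays and lowest of the unstimulated ones on array 3. Its unstimulated arrays were closer together, with an SD of 0.26, against 1.02 for Hspa1a.

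Of 33 further genes for mitochondrial import and quality control, 29 had higher and 4 lower means, 24 had groups separated upward (72.7%) and 1 downward (3.03%), and the median was 0.55, with none called and 5 higher at an adjusted p under 0.10. Examples chosen after their values were seen are Chchd4, the enzyme that traps small TIM proteins by forming disulfide bonds in them, and Dnaja3, the HSP40 of mitochondria. Chchd4 read 7.28 and 6.85 on the stimulated arrays, against 5.12, 5.29 and 5.84 on the unstimulated arrays (1.65 ± 0.29, adjusted p = 0.0950, limma). Dnaja3 read 8.03 and 8.71, against 6.73, 6.83 and 6.84 on the unstimulated arrays (1.57 ± 0.23, adjusted p = 0.0762). Both had wide gaps between the groups, whereas the arrays within the stimulated group differed. Genes for actin, tubulin and tubulin cofactors, the best known clients of the chaperonin and their helpers, had 10 higher and 4 lower means among 14 measured, 7 separated upward (50%) and 4 downward (28.6%), a median of 0.24 and none called.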

How the data were processed

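Gene expression of 5 samples was measured on 1-colour Affymetrix arrays. The values deposited by the authors are RMA output on the log2 scale, per the submitters' processing notes, and were not normalized again. The version of RMA and the arrays processed together are not given in the sources used here. Of 35556 probe sets, 21789 had a single gene symbol in the platform annotation, 1621 had several and 12146 were unnamed in it, and 21698 symbols were checked by Entrez number. The brightest probe set by mean over the 5 arrays stood for each of 19938 genes. A value was shared by some arrays to 5 decimals in 12359 genes (62.0%), 6 of them chaperone genes. There were no detection calls, and all 47 chaperone genes had both group means above the median of all values, 5.64. The number of arrays limits the precision.

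The fit was made in limma 3.58.1 under R 4.3.3 (moderated statistics from eBayes, without a filter on dim genes, prior degrees of freedom 0.649 beside 3 residual ones), and genes were called at a Benjamini-Hochberg adjusted p under 0.05 over all genes. The procedure was also run on simulated arrays with independent normal noise. These lack the values repeated between arrays in the deposited data, so that run does not gauge the error of the calls made here. Differences are PMA and ionomycin minus unstimulated, SE is the standard error of the fit, n is 2 and 3, and figures were drawn with matplotlib 3.10.9. The chaperone genes and the 17 further lists were chosen with earlier results of these data known. Any chaperone gene could be named, and of the further lists up to 4 called genes with the largest change. Chchd4, Dnaja3 and single marker genes of other cells were named besides. Alternatives were other variance models, array weights, a filter on dim genes, other summaries of probe sets, other scalings and thresholds, a replicate block and leaving out arrays. Added after seeing the data were fits without genes holding repeated values and with unstimulated array 3 as the only unstimulated array.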

Additional observations from a re-analysis of the deposited data

How the results depend on the processing

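The count of 3 called chaperone genes, all higher, depended on the setting. It was 3 with an intensity trend or the mean of a gene's probe sets, 4 with array weights and 2 with the second brightest probe set. Robust variances gave 1 (higher). Genes above the median brightness gave 16 (12 higher, 4 lower), beside 7.96% and 6.91% of all such genes. Median centring gave 14 (10 and 4), beside 3.31% and 2.64% of all genes. Repeated quantile normalization gave 17 (13 and 4), beside 4.14% and 3.66%. Centring on reference genes gave 22 (16 and 6), beside 5.26% and 9.10%, with a median difference of 0.15 in place of 0.34. In the main fit the shares were 0.737% and 0.963%, so the calls rose over all genes as well. An adjusted p under 0.10 gave 14 (10 and 4), beside 3.79% and 3.49% of all genes. An adjusted p under 0.05 with at least 1 log2 unit gave 0 of 47 (0 higher), beside 0.316% and 0.607%. In the main fit 29 of the 47 had an unadjusted p under 0.05, beside 3973 of all 19938 genes. Chosen after seeing the data, leaving out genes with repeated values gave 24 of 41 (20 and 4, median 0.42), beside 20.4% and 15.3% of all genes in that fit. Unstimulated array 3 as the only unstimulated array, also chosen after seeing the data, gave a median difference of 0.30. Leaving out each array in turn gave 0 to 2 called, all higher, and medians of 0.24 to 0.40. Without unstimulated array 2, limma called 0 of all genes, with 3024 at an unadjusted p under 0.05. The cause of these shifts was not tested.

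With the replicate number as a block, 0 chaperone genes were called (0 higher), as were 0 of all genes, with 18 and 3568 at an unadjusted p under 0.05. The median difference of the chaperone genes was 0.317 with the block, the same as without unstimulated array 3, which has no stimulated array of its number. Deviations of same-numbered arrays correlated at -0.145 and -0.0582. With so few arrays, neither these values nor the block fit can show whether same-numbered samples share a mouse or a batch. The labels do not say either.

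Of 793 values of single genes over the alternatives, 18 in 10 genes changed sign, all near 0. Centring on reference genes gave -0.091 for Cct4, -0.012 for Hsp90aa1, -0.034 for Hspa4, -0.15 for Ptges3, -0.014 for Timm23 and -0.13 for Vbp1. Median centring gave 0.0038 for Fkbp5 and 0.010 for Hspa8. Hspa8 was at 0.012 with the replicate block, and Ptges3 at -0.045 with the second probe set. With unstimulated array 3 alone, Ptges3 was at -0.071 and Tomm20 at 0.049. With single arrays left out, Cdc37 lay between -0.26 and 0.033, Hspa8 between -0.068 and 0.046, Ptges3 between -0.046 and 0.092, Tomm20 between -0.18 and 0.024 and Vbp1 between -0.035 and 0.13. Another 23 values were no longer called and 80 were newly called. Signal over background could not be judged without detection calls.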
